A study of Arabidopsis thaliana with 12 samples.

Results

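The early flavonoid and flavonol genes of *Arabidopsis thaliana* were followed as 10 loci, listed by gene identity with earlier results of these data known: 5 enzymes from chalcone to flavonol (*CHS*, AT5G13930; *CHI*, AT3G55120; *F3H*, AT3G51240; *F3'H*, AT5G07990; *FLS1*, AT5G08640), 3 MYB regulators (*MYB11*, AT3G62610; *MYB12*, AT2G47460; *MYB111*, AT5G49330) and 2 flavonol glycosyltransferases (*UGT78D1*, AT1G30530; *UGT78D2*, AT5G17050). They are 10 of the 33602 genes counted, and 9 of the 10 were among the 20957 genes abundant enough to be tested. RNA of whole seedlings, roots included, was sequenced in 12 libraries, 3 for each of 4 genotypes in the Col-0 background. Seedlings grew for 8 days on sucrose medium in continuous light, and about 200 were pooled per library.

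The *jazQ phyB* line carries the *phyB-9* allele of the red light receptor phytochrome B together with insertions in 5 *JAZ* genes, the jasmonate repressors *JAZ1*, *JAZ3*, *JAZ4*, *JAZ9* and *JAZ10*. The *phyB* line carries *phyB-9* alone, *jazQ* carries the *JAZ* insertions alone (alleles *jaz1-2*, *jaz3-4*, *jaz4-1*, *jaz9-4* and *jaz10-1*), and WT is Col-0 with none of them. The study combined the mutations to ask how jasmonate defence and phytochrome B control of growth are linked. Each genotype is a single line, and *phyB* was lost in every cell type. Libraries held 12750074 to 26347184 counts, and a floor of 3 counts equals 0.114 to 0.235 CPM (counts made comparable between libraries of unequal depth), which covers counting error only. In the 6 libraries with the *JAZ* insertions, *JAZ1* and *JAZ4* had fewer reads and *JAZ3* and *JAZ10* more reads than in every library without them, while *PHYB* had 50.7 to 57.4 CPM in the 6 libraries with *phyB-9* and 74.5 to 88.0 CPM in the other 6. *JAZ9* was not separated by its insertion: it had 56.7 to 73.8 CPM in *jazQ phyB*, 43.8 to 52.7 in *phyB*, 79.1 to 84.8 in *jazQ* and 61.3 to 88.0 in WT, and was called higher in *jazQ phyB* than in *phyB* (log2 fold change 0.50, edgeR adjusted p = 0.00981). Gene counts do not show which part of a disrupted gene the reads came from.

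Flavonols are phenolic compounds that screen ultraviolet light and modulate auxin transport. Chalcone synthase (CHS) joins a phenylpropanoid unit to malonate units, and chalcone isomerase (CHI) closes a ring. Flavanone 3-hydroxylase (F3H) and flavonoid 3'-hydroxylase (F3'H) add hydroxyl groups at different positions, and flavonol synthase (FLS1) forms kaempferol and quercetin from dihydroflavonols. Dihydroflavonol 4-reductase (DFR) draws on the same dihydroflavonols and leads to anthocyanins. MYB11, MYB12 and MYB111 activate the early genes and *FLS1*, and the light regulator HY5 acts on several of the same promoters.

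The promoters were searched for the letters ACCTACC and ACCTAAC, which R2R3-MYB activators recognise, for the G-box CACGTG, which bZIP factors such as HY5 and bHLH factors such as the PIFs and MYCs bind, and for its ACGT core, each on both strands. Positions are from RefSeq on the TAIR10.1 assembly. In the 500 bases before the first coding base, ACCTACC was present in 4 of 10 genes, against 2.16% of 27443 protein-coding genes. These 4 sites are shown, 5′ to 3′ on the strand of the gene, because they stand in 3 of the early enzymes and in *UGT78D1*, whose levels are compared further on; capitals mark the motif.
CHS chr5:4488607-4488635, plus strand: ccgtccatctaACCTACCacactctcatc
CHI chr3:20431499-20431527, minus strand: taactattgctACCTACCcttctctcttc
F3H chr3:19025255-19025283, plus strand: agtagtaccgtGGTAGGTagctagcgacc
UGT78D1 chr1:10814774-10814802, plus strand: cttcaagtggtACCTACCactgtccagag
The *F3H* site reads ACCTACC on the opposite strand. The sites began 144 bases before the first coding base in *CHS*, 101 in *CHI*, 143 in *F3H* and 132 in *UGT78D1*, and all 4 lie after the annotated gene start. This window was added after a first search of 250 bases before to 50 bases after the gene start had found ACCTACC in 0 of 10 genes (1.38% of all genes) and ACCTAAC in 0 of 10 (2.88%). In the longer window ACCTAAC was in 1 of 10 genes, *CHS* (4.66% of all). Letters that match are a description and not a measured binding site.

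The G-box was found around the gene start of 4 of 10 genes, *CHS*, *CHI*, *F3H* and *MYB12*, against 7.68% of all genes, and before the coding start of 3 of 10 (*CHI*, *F3H* and *MYB12*), against 9.34%. Of the 4 genes, *CHS* and *MYB12* are shown because they are the most abundant enzyme transcript and the regulator with the largest difference from WT in *jazQ phyB*.
CHS chr5:4488232-4488259, plus strand: agttaagtatgCACGTGtaagaactggg
MYB12 chr2:19476197-19476224, plus strand: cttacaccacaCACGTGtcatcatctcc
The ACGT core, which every G-box also contains, was around the start of 7 of 10 genes and of 49.9% of all genes. The 3 genes without it were *F3'H*, *UGT78D1* and *UGT78D2*.

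Per length, *CHS* was the most abundant of the 10 transcripts and *MYB11* the least abundant in every genotype. *CHS* averaged 207 ± 8.30 TPM (reads scaled for transcript length and library size) in *jazQ phyB*, 221 ± 25.2 TPM in *phyB*, 296 ± 16.9 TPM in *jazQ* and 287 ± 18.5 TPM in WT (SD, n = 3 each). It supplied 39.6% of the summed TPM of the 10 genes in *jazQ phyB*, 41.2% in *phyB*, 45.7% in *jazQ* and 42.7% in WT. In WT the order below *CHS* was *FLS1* (113 ± 7.25 TPM), *CHI* (100.5 ± 4.68), *F3H* (74.0 ± 7.30), *UGT78D2* (43.1 ± 2.32), *UGT78D1* (25.2 ± 1.59) and *F3'H* (11.3 ± 0.220). *MYB12* (9.14 ± 1.48 TPM) and *MYB111* (8.27 ± 1.62 TPM) overlapped in WT. *FLS1* and *CHI* did not overlap in WT but did in *jazQ phyB* and *phyB*.

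*MYB11* (chr3:23154630-23156585, plus strand, 3 exons) was near the floor of detection. It had 7, 4 and 5 counts in *jazQ phyB*, 3, 4 and 0 in *phyB*, 1, 8 and 5 in *jazQ* and 5, 5 and 1 in WT, and no difference was detectable at this depth. It was left out of the tests, and counts of members given from here on are out of 9.

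**Figure D1:**
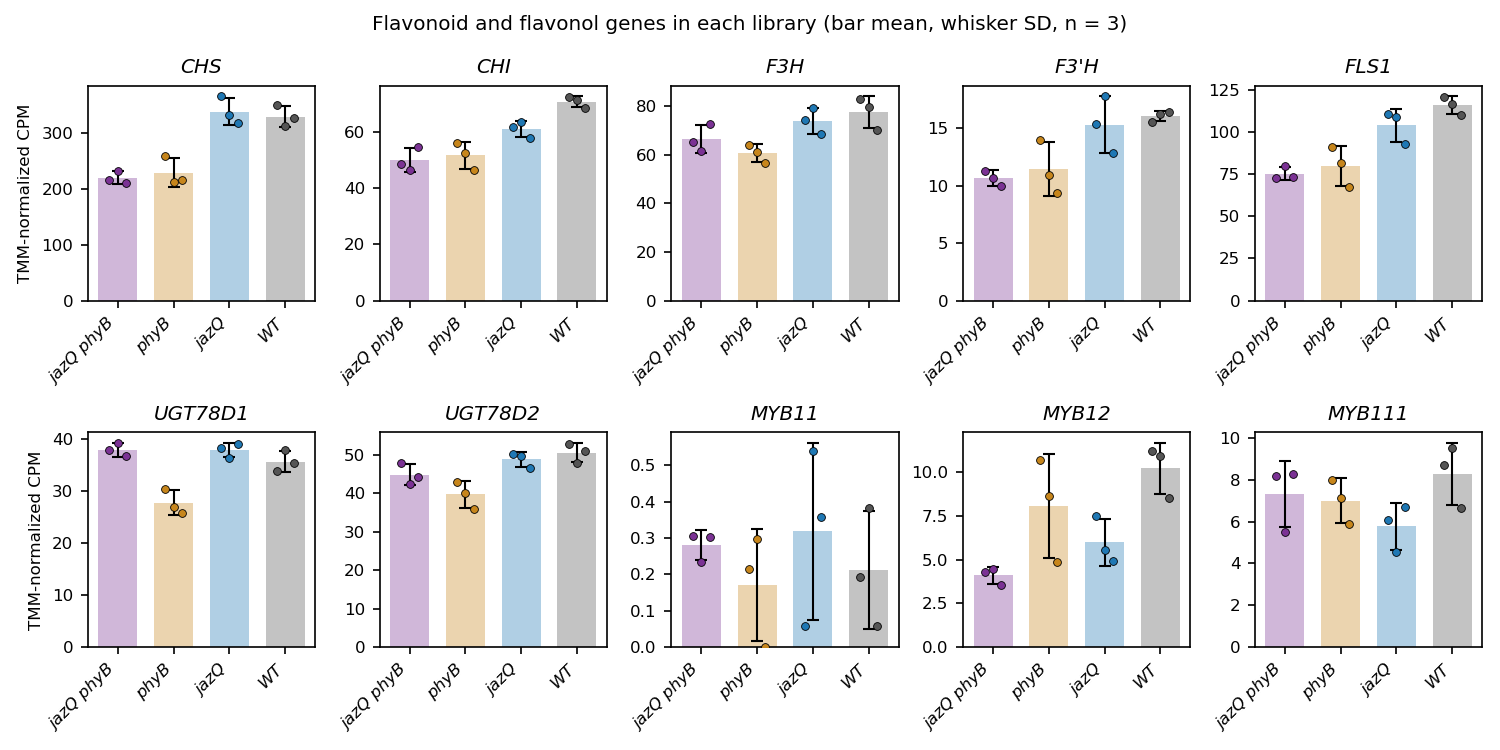
TMM-normalized CPM of the 10 genes in each library, 1 panel per gene, with genotypes from left to right *jazQ phyB*, *phyB*, *jazQ* and WT; bars are means, whiskers SD and points the 3 libraries. *CHS*, *CHI*, *F3'H* and *FLS1* were lower in all 6 libraries with *phyB-9* than in any WT library, while *UGT78D1* was lower in *phyB* only and *MYB12* was lowest in *jazQ phyB*.

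Loss of phytochrome B alone was accompanied by lower levels across the group. In *phyB* against WT, 6 of 9 genes were lower at a Benjamini-Hochberg adjusted p below 0.01 in the edgeR quasi-likelihood test (*CHS*, *CHI*, *F3H*, *FLS1*, *UGT78D1* and *UGT78D2*) and none was higher. Of all genes tested, 7.06% were called lower in this comparison. All 9 log2 fold changes were below 0, from -0.54 to -0.25, with a median of -0.37 against 0.01 over all genes tested. The libraries did not overlap for 7 of 9 genes, which were lower in *phyB* (19.3% of all genes tested).

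*CHS*, which commits carbon to flavonoids (chr5:4488476-4490264, plus strand, 2 exons), had 260, 212 and 216 CPM in *phyB*, against 349, 312 and 326 CPM in WT. The highest *phyB* library was below the lowest WT library. The log2 fold change was -0.52 (SE 0.08, edgeR adjusted p = 5.09e-04).

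*CHI* (chr3:20430059-20431597, minus strand, 4 exons) had 56.1, 52.7 and 46.6 CPM in *phyB*, against 72.5, 71.4 and 68.7 CPM in WT. The groups were well apart, with a log2 fold change of -0.46 (SE 0.08, edgeR adjusted p = 7.73e-04). *F3H* (chr3:19025192-19026872, plus strand, 3 exons), whose product is the dihydroflavonol, had 64.0, 61.1 and 56.7 CPM in *phyB*, against 82.9, 79.5 and 70.3 CPM in WT. The gap between the nearest libraries was smaller here, and the log2 fold change was -0.36 (SE 0.08, edgeR adjusted p = 0.00663).

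*F3'H* (chr5:2560328-2563137, plus strand, 4 exons), a cytochrome P450 that acts towards quercetin, had 13.997, 10.98 and 9.34 CPM in *phyB*, against 15.6, 16.2 and 16.5 CPM in WT. These libraries did not overlap either, but those of *phyB* were spread widely and the log2 fold change of -0.50 (SE 0.14) did not pass the threshold (edgeR adjusted p = 0.0178). *FLS1* (chr5:2803833-2805606, plus strand, 3 exons), the committed flavonol enzyme, had 90.9, 81.9 and 67.2 CPM in *phyB*, against 121, 117 and 110.4 CPM in WT. Its log2 fold change was -0.54 (SE 0.10, edgeR adjusted p = 0.00128), the lowest estimate among the 6 called genes.

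Both glycosyltransferases were lower as well. *UGT78D1* (chr1:10814612-10816615, plus strand, 2 exons), which adds rhamnose to the 3-hydroxyl of flavonols, had 30.4, 26.9 and 25.8 CPM in *phyB*, against 33.8, 37.9 and 35.3 CPM in WT. The change was -0.36 on the log2 scale (SE 0.07, edgeR adjusted p = 0.00291). *UGT78D2* (chr5:5607788-5609589, minus strand, 2 exons), which adds glucose at the same position and also acts on anthocyanidins, had 43.0, 40.1 and 36.0 CPM in *phyB*, against 52.9, 47.8 and 51.1 CPM in WT. Its log2 fold change was -0.36 (SE 0.07, edgeR adjusted p = 0.00356), close to that of *UGT78D1*.

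The regulators overlapped with WT. *MYB12* (chr2:19476326-19479597, plus strand, 3 exons) had 10.7, 8.60 and 4.86 CPM in *phyB*, against 11.2, 10.9 and 8.52 CPM in WT, and *phyB* replicate 3 stood below the others. Its log2 fold change was -0.37 with an interval of -0.86 to 0.12 (edgeR adjusted p = 0.274). *MYB111* (chr5:19998823-20001572, minus strand, 3 exons) had 8.01, 7.12 and 5.87 CPM in *phyB*, against 8.72, 9.50 and 6.64 CPM in WT, with a log2 fold change of -0.25 (interval -0.66 to 0.16, edgeR adjusted p = 0.385).

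The calls of *CHS*, *CHI* and *FLS1* in *phyB* held without any 1 library. Without *phyB* replicate 2 or *phyB* replicate 3, 3 of the 9 genes were called. *F3H* passed the threshold no longer without WT replicate 1 or 2, *jazQ* replicate 1, any *phyB* replicate or *jazQ phyB* replicate 1 (edgeR adjusted p 0.0103 to 0.0341), nor with upper-quartile normalization (0.0113). The call of *UGT78D1* was lost without WT replicate 2 or *phyB* replicate 2 or 3 (0.0141 to 0.0171) and with only *phyB* and WT in the fit (0.01015), and that of *UGT78D2* without WT replicate 1 or 3 or *phyB* replicate 2 or 3 (0.0108 to 0.0198), also from edgeR. *F3'H* passed the threshold without *phyB* replicate 1 (edgeR adjusted p = 0.00430). In *phyB* replicate 1 all 9 genes lay above their genotype mean, and in *phyB* replicate 3 all 9 lay below it. All 9 also lay above their genotype mean in *jazQ* replicate 1.

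Fewer of these genes were called with limma on TPM. That fit changed both the scale and the test, and their parts in the lost calls were not tested. On log2(TPM + 1) the median of all tested genes was 0.14 higher in *phyB* than in WT, 0.11 higher in *jazQ phyB* than in WT and 0.10 higher in *jazQ phyB* than in *jazQ*. With limma on that scale only *CHS* was called in *phyB* (log2 fold change -0.38, adjusted p = 0.00398), and *CHI* (-0.31, 0.0136), *F3H* (-0.21, 0.0922), *FLS1* (-0.40, 0.0102), *UGT78D1* (-0.21, 0.0383) and *UGT78D2* (-0.20, 0.0522) were not. Relative to the shift of all genes, the changes in *phyB* were -0.52 for *CHS*, -0.45 for *CHI*, -0.35 for *F3H*, -0.54 for *FLS1*, -0.35 for *UGT78D1* and -0.34 for *UGT78D2*.

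Tissue markers moved in the same libraries. The 14 root markers, all at 3 or more counts in every library, summed to 143 to 153 TPM in *jazQ phyB*, 143 to 148 TPM in *phyB*, 98.8 to 99.96 TPM in *jazQ* and 98.0 to 109 TPM in WT. Of the 14, 5 were called higher in *jazQ phyB* against WT (3.75% of all genes tested) and 2 in *phyB* (4.7%). The 10 shoot markers, also all detected, summed to 146 to 152 TPM in *jazQ phyB*, 138 to 153 TPM in *phyB*, 139 to 145 TPM in *jazQ* and 151 to 161 TPM in WT. Of the 10, 1 was called lower in *phyB* (7.06% of all genes tested) and 0 in *jazQ phyB* (6.02%). The TPM sums were not corrected for the shift of all genes given above. In edgeR the median log2 fold change of the shoot markers against WT was -0.20 in *jazQ phyB*, -0.34 in *phyB* and -0.13 in *jazQ*. That of the root markers was 0.44, 0.30 and 0.00. In *phyB*, 8 of 10 shoot markers were below 0 and 12 of 14 root markers above 0. The median of the 9 flavonoid genes in *phyB* was -0.37. The part of these marker levels in the flavonoid results was not tested, and in whole seedlings fewer cells of a type and less RNA per cell cannot be told apart.

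With the *JAZ* insertions alone, none of the 9 genes was called against WT, where 1.54% of all genes tested were called in either direction. At an unadjusted p below 0.05, edgeR gave 3 of the 9 (*CHI*, *MYB12* and *MYB111*), beside 3601 of all 20957 genes tested. DESeq2 also called 0 of 9. *CHS* had 366, 332 and 317 CPM in *jazQ*, against 349, 312 and 326 CPM in WT, and its log2 fold change was 0.04 with an interval of -0.14 to 0.22 (edgeR adjusted p = 0.875). For *F3H* (-0.07), *F3'H* (-0.07), *FLS1* (-0.16), *UGT78D1* (0.09) and *UGT78D2* (-0.05), the 95% intervals of the log2 fold change also included 0.

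For 2 of 9 genes the libraries did not overlap and were lower in *jazQ*, against 10.5% of all genes tested. *MYB12* had 7.47, 5.55 and 4.93 CPM in *jazQ*, against 11.2, 10.9 and 8.52 CPM in WT, with a log2 fold change of -0.76 (SE 0.23, edgeR adjusted p = 0.0897). *CHI* had 61.7, 63.6 and 58.0 CPM in *jazQ*, against 72.5, 71.4 and 68.7 CPM in WT, with a log2 fold change of -0.21 (SE 0.08, edgeR adjusted p = 0.149). *MYB111* had 6.08, 4.53 and 6.71 CPM in *jazQ*, against 8.72, 9.50 and 6.64 CPM in WT, so that its highest *jazQ* library was just above the lowest WT library (log2 fold change -0.52, SE 0.19, edgeR adjusted p = 0.177).

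In *jazQ phyB* against WT, 5 of 9 genes were lower and none was higher: *CHS*, *CHI*, *F3'H*, *FLS1* and *MYB12*. Of all genes tested, 6.02% were called lower here. The same 5 genes were those whose libraries did not overlap (17.1% of all genes tested were lower without overlap). The median log2 fold change of the 9 was -0.50, against 0.00 over all genes tested. The comparisons of *jazQ phyB* and of *phyB* with WT share the WT libraries.

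*CHS* had 215, 233 and 211 CPM in *jazQ phyB*, against 349, 312 and 326 CPM in WT, a log2 fold change of -0.58 (SE 0.08, edgeR adjusted p = 2.67e-04). *CHI* had 48.6, 46.7 and 54.8 CPM in *jazQ phyB*, against 72.5, 71.4 and 68.7 CPM in WT, a log2 fold change of -0.50 (SE 0.08, edgeR adjusted p = 4.12e-04). *FLS1* had 72.6, 79.6 and 73.3 CPM in *jazQ phyB*, against 121, 117 and 110.4 CPM in WT, a log2 fold change of -0.63 (SE 0.10, edgeR adjusted p = 4.84e-04). Set directly against *phyB*, the levels in *jazQ phyB* differed by -0.06 for *CHS*, -0.05 for *CHI* and -0.09 for *FLS1* on the log2 scale, and each interval included 0.

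*F3'H* had 11.3, 10.7 and 9.97 CPM in *jazQ phyB*, against 15.6, 16.2 and 16.5 CPM in WT, with the 3 mutant libraries close together. The log2 fold change was -0.59 (SE 0.13, edgeR adjusted p = 0.00748). This call was near the threshold and was lost without any 1 of the WT or *jazQ phyB* replicates, *jazQ* replicate 1 or *phyB* replicate 2 (edgeR adjusted p 0.0116 to 0.0280). With limma on log2(TPM + 1) its adjusted p was 0.0323.

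*F3H* was not called in *jazQ phyB*. It had 65.3, 61.6 and 72.7 CPM in *jazQ phyB*, against 82.9, 79.5 and 70.3 CPM in WT, and the highest *jazQ phyB* library exceeded the lowest WT library (log2 fold change -0.22, SE 0.08, edgeR adjusted p = 0.0737). An annotated gene on the opposite strand, AT3G51238, overlaps *F3H*, and it held 0 to 13 counts against 824 to 2138 for *F3H*. *CHS* overlaps AT5G13940 on the opposite strand, which held 0 to 2 counts against 2863 to 9012 for *CHS*, and *MYB11* overlaps AT3G62615, for which no count was used here. RSEM with default parameters, as the methods give it, does not use strand, so that reads of a gene and of its opposite partner cannot be told apart, also among the few counts of *MYB11*.

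*MYB12* had the lowest log2 fold change of the 9 genes. It had 4.26, 4.47 and 3.57 CPM in *jazQ phyB*, against 11.2, 10.9 and 8.52 CPM in WT. The log2 fold change was -1.31 (SE 0.24, edgeR adjusted p = 0.00165), so that WT was 2.48-fold higher. Each library of *jazQ phyB* was also below each library of *jazQ* and of *phyB*.

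**Figure D2:**
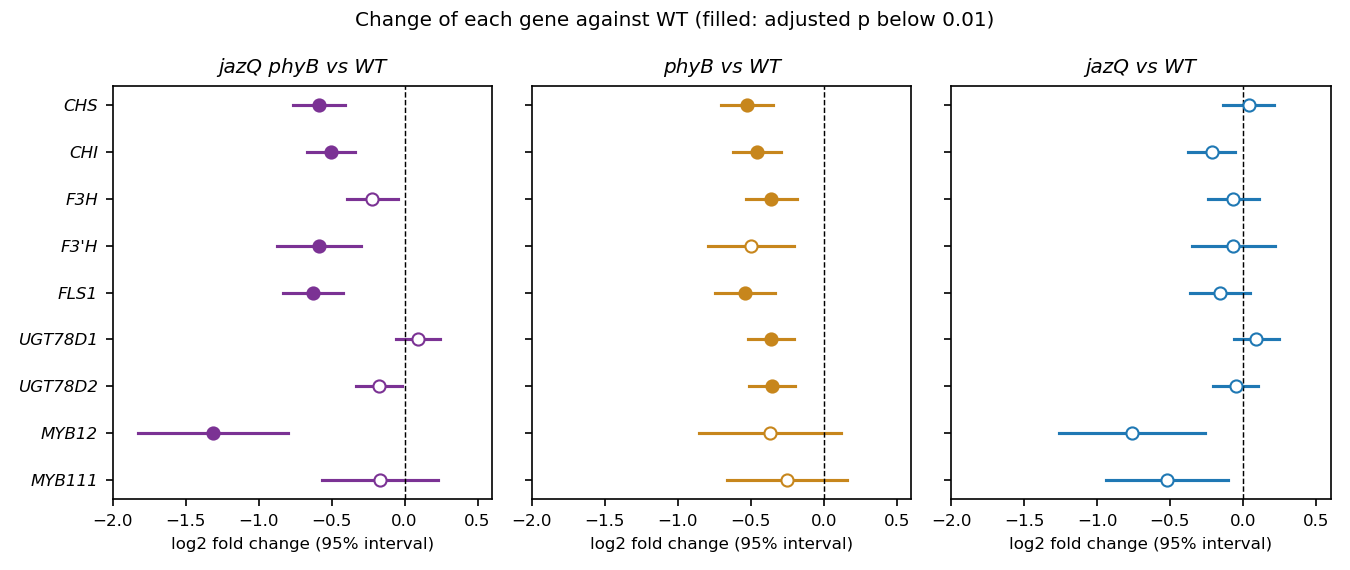
Log2 fold change against WT (x axis) of the 9 genes tested, in *jazQ phyB*, *phyB* and *jazQ* from left to right; points are edgeR estimates, bars 95% intervals, and filled points have an adjusted p below 0.01. The 5 enzymes lay at -0.63 to -0.22 in *jazQ phyB* and at -0.54 to -0.36 in *phyB*, and *MYB12* lay at -1.31 in *jazQ phyB*.

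Against *jazQ*, the *phyB-9* allele was accompanied by lower levels of 2 of 9 genes in *jazQ phyB*, where 4.15% of all genes tested were called lower. *CHS* had 215, 233 and 211 CPM in *jazQ phyB*, against 366, 332 and 317 CPM in *jazQ* (log2 fold change -0.62, SE 0.08, edgeR adjusted p = 2.59e-04). *FLS1* had 72.6, 79.6 and 73.3 CPM in *jazQ phyB*, against 110.6, 109 and 92.8 CPM in *jazQ* (log2 fold change -0.47, SE 0.10, edgeR adjusted p = 0.00499). The *FLS1* call was lost without *jazQ* replicate 1 or 2 or any *jazQ phyB* replicate (edgeR adjusted p 0.0107 to 0.0290) and with limma on log2(TPM + 1) (adjusted p = 0.0295).

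*CHI* (-0.29, edgeR adjusted p = 0.0206), *F3'H* (-0.52, 0.0206) and *MYB12* (-0.55, 0.169) did not overlap with *jazQ* either but were not called. In all, 5 of 9 genes were lower without overlap, against 16.1% of all genes tested. *CHI* passed the threshold without *jazQ phyB* replicate 3 (edgeR adjusted p = 0.00887), as did *F3'H* without *phyB* replicate 1 (0.00987).

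Against *phyB*, 1 of 9 genes was higher in *jazQ phyB* and 0 were lower, where 6.01% of all genes tested were called higher and 5.76% lower. The higher gene was *UGT78D1*, with 37.8, 39.3 and 36.6 CPM in *jazQ phyB*, against 30.4, 26.9 and 25.8 CPM in *phyB*. The log2 fold change was 0.45 (SE 0.07, edgeR adjusted p = 5.35e-04), and this call held in every setting tried, those without 1 library included. *UGT78D1* in *jazQ phyB* differed from *jazQ* by 0.00 on the log2 scale (interval -0.15 to 0.15) and from WT by 0.09 (interval -0.06 to 0.24).

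*UGT78D2* showed a smaller difference in the same direction, with 47.9, 42.5 and 44.2 CPM in *jazQ phyB*, against 43.0, 40.1 and 36.0 CPM in *phyB*. These libraries overlapped, and the log2 fold change was 0.18 (SE 0.07, edgeR adjusted p = 0.0975). *MYB12* had 4.26, 4.47 and 3.57 CPM in *jazQ phyB*, against 10.7, 8.60 and 4.86 CPM in *phyB*. The libraries did not overlap, with a log2 fold change of -0.95 (SE 0.25) that missed the threshold (edgeR adjusted p = 0.0139) and passed it without *phyB* replicate 3 (0.00112), with no filter on low counts (0.00722) and with DESeq2 (0.00196). Lower without overlap were 20.4% of all genes tested, and higher without overlap, as *UGT78D1* was, 20%. The 5 enzymes differed by -0.09 to 0.14 on the log2 scale, and all 5 of their intervals included 0.

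The interaction asks whether the change in *jazQ phyB* departs from the sum of the changes in *jazQ* and *phyB* on the log2 scale. None of the 9 genes was called, where 3.61% of all genes tested were, and DESeq2 also called 0 of 9. At an unadjusted p below 0.05, edgeR gave 3 of the 9, beside 5075 of all 20957 genes tested. *UGT78D1* departed by 0.36 (SE 0.10, edgeR adjusted p = 0.0383), *UGT78D2* by 0.23 (SE 0.10, adjusted p = 0.187) and *MYB111* by 0.60 (SE 0.27, adjusted p = 0.198). The intervals of the 5 enzymes and *MYB12* included 0, the narrowest being -0.07 to 0.40 for *CHI* and the widest -0.91 to 0.55 for *MYB12*.

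The 5 enzymes varied together over the 12 libraries. Pearson's r of log2 CPM between pairs of enzymes was 0.74 to 0.94 (10 pairs), and 0.21 to 0.88 after the genotype means were removed. *UGT78D2* had r of 0.77 to 0.85 with the enzymes, *MYB12* 0.35 to 0.71, *UGT78D1* 0.29 to 0.55 and *MYB111* -0.11 to 0.27. Within genotypes *MYB12* followed *FLS1* most closely (r = 0.92). These are descriptions over 12 points that share genotype means, libraries and scaling.

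The 8 other genes whose levels most resembled the mean centred profile of the 5 enzymes had r of 0.93 to 0.96 over the same libraries. They were *MGT10*, which encodes a magnesium transporter, *PPOX*, which encodes protoporphyrinogen oxidase of tetrapyrrole synthesis, *AOAT2*, which encodes an aminotransferase of photorespiration, the receptor kinase gene *PERK10*, and AT1G72030, AT1G12800, AT4G27700 and AT5G53050. The members and the genes of the pathway lists described next were left out of this search beforehand, so that none of them could be among the 8.

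Of the 8 phenylpropanoid entry genes upstream of chalcone synthase, 2 were lower in *phyB* against WT (7.06% of all genes tested), *PAL2* (log2 fold change -0.48, edgeR adjusted p = 0.00116) and *C4H* (-0.32, 0.00103), the lyase and hydroxylase that make coumarate. In *jazQ phyB* against WT 1 of 8 was called, *4CL2*, which was higher (0.45, edgeR adjusted p = 0.00111), where 3.75% of all genes tested were higher. Against *phyB*, 1 of 8 was higher in *jazQ phyB* (6.01% of all genes tested), *C4H* (0.35, edgeR adjusted p = 5.13e-04). In *jazQ* 0 of 8 were called by edgeR, with 1 at an unadjusted p below 0.05, beside 3601 of all 20957 genes tested. The median log2 fold change of the 8 was 0.07 in *jazQ phyB*, -0.12 in *phyB* and -0.01 in *jazQ*.

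Of 11 other flavonol genes, 8 were tested. *CHIL*, the helper protein that raises the output of chalcone synthase, had 66.6, 69.9 and 56.4 CPM in *phyB*, against 109, 103 and 98.9 CPM in WT, and its log2 fold change of -0.69 (SE 0.09, edgeR adjusted p = 9.39e-05) was lower than that of any of the 9 genes in *phyB*. In *jazQ phyB* it had 78.4, 82.6 and 92.6 CPM, below WT in every library and not called (-0.30, edgeR adjusted p = 0.0280). *RHM1*, whose product makes the UDP-rhamnose used by UGT78D1, was higher than in WT in *jazQ phyB* (0.64, edgeR adjusted p = 1.51e-05), in *phyB* (0.39, 6.72e-04) and in *jazQ* (0.46, 9.25e-04).

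*FLS3*, a paralog of *FLS1*, was higher in *jazQ phyB* than in WT (0.54, edgeR adjusted p = 0.00493). Against *phyB*, 2 of the 8 other flavonol genes tested were higher in *jazQ phyB* (6.01% of all genes tested). They were *CHIL* (0.40, edgeR adjusted p = 0.00546) and *FLS3* (0.64, 0.00176). The flavonol 7-rhamnosyltransferase gene *UGT89C1* and the methyltransferase gene *OMT1* were called in no mutant against WT.

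The late anthocyanin and tannin genes included calls in both directions. Of the 16, 12 were tested: 2 were higher and 0 lower in *jazQ phyB* against WT, where 3.75% of all genes tested were higher. In *phyB*, 5 were lower and 0 higher (7.06% of all genes lower), and in *jazQ*, 2 were higher and 0 lower (0.997% of all genes higher). Their median log2 fold change was 0.48 in *jazQ phyB*, -1.08 in *phyB* and 0.76 in *jazQ*. Against *phyB*, 8 of 12 were higher in *jazQ phyB* (6.01% of all genes).

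*DFR*, which competes with FLS1 for substrate, had 19.4, 22.3 and 15.5 CPM in *jazQ phyB*, 1.80, 1.78 and 1.01 CPM in *phyB*, 26.3, 44.9 and 17.8 CPM in *jazQ* and 7.29, 12.0 and 9.99 CPM in WT. It was lower in *phyB* (log2 fold change -2.67, SE 0.41, edgeR adjusted p = 4.29e-04) and higher in *jazQ* (1.64, SE 0.28, 0.00424), and in *jazQ phyB* it was above every WT library without passing the threshold (1.00, SE 0.28, 0.0227). *LDOX*, the next enzyme towards anthocyanin, was lower in *phyB* (-2.55, edgeR adjusted p = 1.47e-04) and had an interaction of 2.07 (edgeR adjusted p = 0.00804). In *jazQ phyB* its libraries overlapped with WT (0.52, interval -0.01 to 1.06, edgeR adjusted p = 0.172). *TT19*, a glutathione S-transferase needed for anthocyanin to reach the vacuole, was lower in *phyB* (-1.43, edgeR adjusted p = 9.75e-04).

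The anthocyanin decorating genes *UF3GT* and *5MAT* were also called lower in *phyB*, on few reads. *UF3GT* had 1, 1 and 4 counts in *phyB*, against 34, 20 and 26 in WT, and *5MAT* had 5, 3 and 1 counts in *phyB*, against 32, 25 and 21 in WT. Both were at or near the floor of 3 counts in *phyB*, so that no fold is given. *UF3GT* was also called higher in *jazQ* (1.44, edgeR adjusted p = 0.00900), and its interaction was called higher.

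The anthocyanin regulators *PAP2* (1.43, edgeR adjusted p = 0.00594) and *GL3* (0.91, 0.00554) were higher in *jazQ phyB* than in WT. *PAP2*, a relative of the MYBs studied here that activates late genes, had an interaction of 3.35 (edgeR adjusted p = 0.00224). This estimate rests on few reads: 97, 53 and 44 counts in *jazQ phyB*, 13, 13 and 8 in *phyB*, 6, 12 and 7 in *jazQ* and 37, 21 and 12 in WT.

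**Figure D3:**
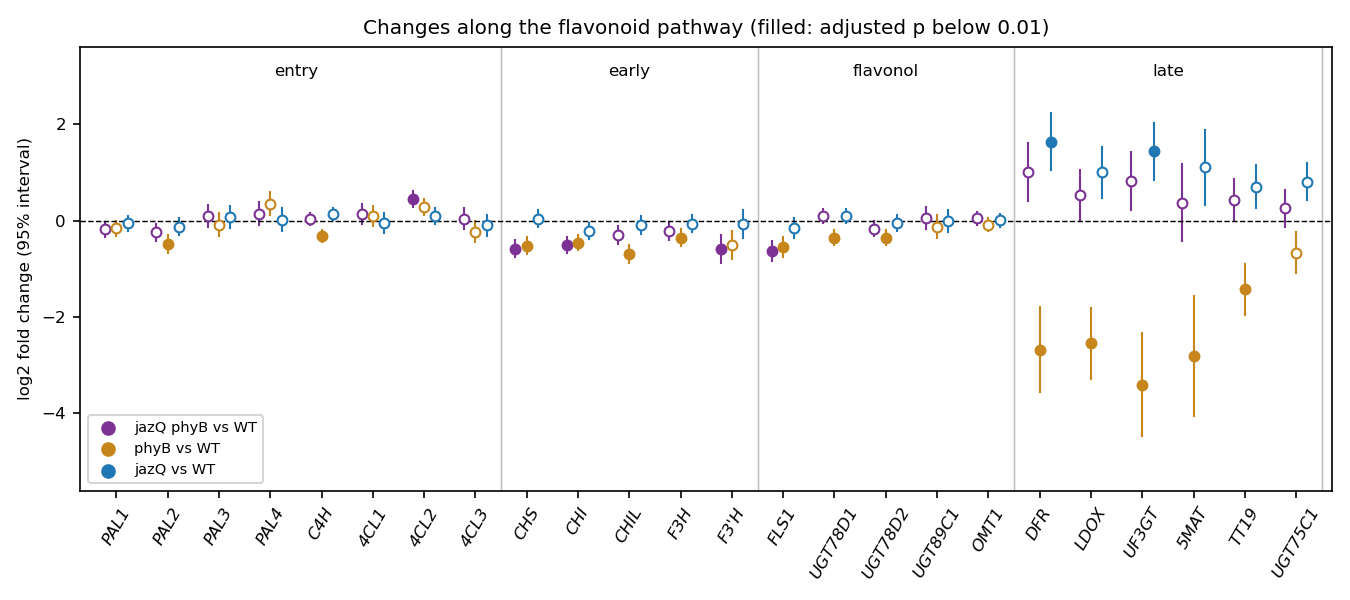
Log2 fold change against WT (y axis) of genes in pathway order, grouped as entry, early, flavonol and late, for *jazQ phyB*, *phyB* and *jazQ*; points are edgeR estimates, bars 95% intervals, and filled points have an adjusted p below 0.01. Of the genes drawn, the filled early and flavonol points in *jazQ phyB* (*CHS*, *CHI*, *F3'H* and *FLS1*) lie below 0 and no late point is filled. *RHM1*, the *FLS1* paralogs and the late regulators are not drawn, and of these *RHM1*, *FLS3*, *PAP2* and *GL3* were called higher in *jazQ phyB*. In *phyB* 5 late points are filled below 0, of which *UF3GT* and *5MAT* rest on 1 to 5 counts per library.

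The ratio of *DFR* to *FLS1* within a library describes the split between anthocyanin and flavonol transcripts; it was chosen after the values were seen. It was 0.207 to 0.276 in *jazQ phyB* (TPM over TPM), 0.0149 to 0.0214 in *phyB*, 0.189 to 0.404 in *jazQ* and 0.0592 to 0.101 in WT. The ratio in *jazQ phyB* was 13.4-fold that in *phyB* and 3.05-fold that in WT, without overlap. With 3 libraries a genotype the exact permutation test cannot go below a p of 0.1 (two-sided), which these comparisons and those of *phyB* and *jazQ* with WT reached (Benjamini-Hochberg adjusted p = 0.214 over 15 ratio comparisons).

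The ratio of *UGT78D1* to *UGT78D2* was 0.702 ± 0.0572 in *jazQ phyB*, 0.579 ± 0.0203 in *phyB*, 0.644 ± 0.0450 in *jazQ* and 0.586 ± 0.0647 in WT (SD, n = 3 each). Of the 5 comparisons, only *jazQ phyB* against *phyB* had no overlap (1.21-fold, exact permutation p = 0.1, two-sided). The ratio of *CHS* to *FLS1* was 2.57 to 2.65 in *jazQ phyB*, 2.31 to 2.86 in *phyB*, 2.72 to 3.05 in *jazQ* and 2.39 to 2.64 in WT, so that *jazQ* was above WT and above *jazQ phyB* without overlap (exact permutation p = 0.1 for both, two-sided).

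**Figure D4:**
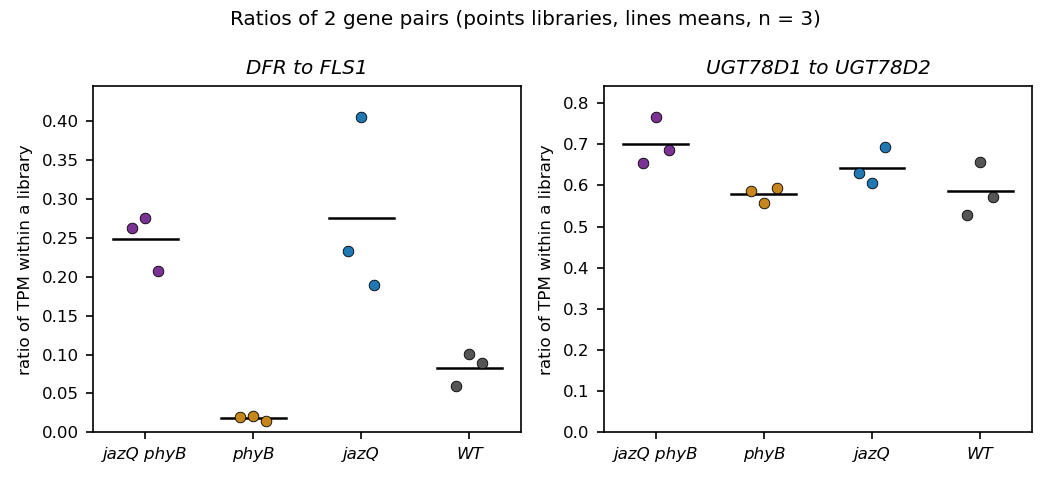
Ratio of TPM within each library (y axes, from 0) for *DFR* over *FLS1* and *UGT78D1* over *UGT78D2*, with genotypes from left to right *jazQ phyB*, *phyB*, *jazQ* and WT; points are libraries and lines means. The *DFR* to *FLS1* ratio lay at 0.0149 to 0.0214 in *phyB*, below every other library.

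Of 10 regulators that act upstream in light or as repressors, 2 were lower in *phyB* against WT (7.06% of all genes tested). *RUP2*, a repressor of ultraviolet-B signalling, was lower in *phyB* (log2 fold change -0.83, edgeR adjusted p = 1.35e-04) and in *jazQ phyB* (-0.56, 0.00217). *HYH*, the homolog of HY5, was lower in *phyB* (-0.58, edgeR adjusted p = 2.86e-04) and had an interaction of 0.77 (0.00143), with a level in *jazQ phyB* of -0.18 relative to WT (edgeR adjusted p = 0.162). *HY5* itself was called in no mutant against WT, with log2 fold changes of -0.33 in *jazQ phyB*, 0.01 in *phyB* and -0.35 in *jazQ*. *MYB4*, a repressor of phenylpropanoid genes, was lower in *jazQ* (-0.51, edgeR adjusted p = 8.32e-04), the sole member of the 10 called there (0.544% of all genes tested were lower).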

How the data were processed

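Per the study's methods and labels, single-end 50-base reads were assigned by the authors to TAIR10 gene models with RSEM 1.2.11. The deposited expected counts were whole numbers (100%) without normalization, and the deposited TPM values are scaled by RSEM for transcript length and library size. All 12 libraries were used and genotypes came from the labels.

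Counts were normalized by TMM in edgeR 4.0.16 (R 4.3.3). Genes passing filterByExpr with a minimum count of 10 entered 1 quasi-likelihood model of the 4 genotypes, and a Benjamini-Hochberg adjusted p-value below 0.01, adjusted over all 20957 genes, was a call. Standard errors came from the quasi-likelihood F statistic. Tested on simulated data with 200 genes changed by 1 on the log2 scale, the fit of *phyB* against WT recovered 69% with 2 false calls, and that of the interaction 60.5% with 0.

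Genes were named by a rule: all 10 members, the genes of the 4 pathway lists called in *phyB* or *jazQ phyB* against WT or in the interaction, 8 genes of nearest profile (mean of at least 1 CPM) and the mutated genes. *UGT89C1*, *OMT1*, *HY5*, *MYB4* and the 3 ratios were added after their values were seen. The members and lists were chosen with earlier results of these data known. Alternatives were DESeq2 1.42.0, limma 3.58.1 on log2(TPM + 1) and log2(TPM + 0.1), other scalings and filters, a fit of only the genotypes compared, a replicate block, a threshold of 0.05 and each library left out in turn.

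Libraries of a genotype differed by more than sampling noise (chi-square per degree of freedom 2.21 to 14.2). They are labelled as independent samples. Per the methods, WT and mutant seedlings shared plates and libraries were multiplexed in sequencing lanes, but the labels tie no replicate number to a plate or lane. Of the 50-base stretches of the 10 transcripts, 1 of 1571 in *UGT78D2* and 0 in the others occurred in another gene. Motifs were counted with Python 3.11.15.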

Additional observations from a re-analysis of the deposited data

How the results depend on the processing

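No call on the 10 genes changed direction in the settings tried. Over the 9 genes and 6 comparisons, 14 calls were made. In *phyB* against WT the count of 6 genes lower became 1 with limma on log2(TPM + 1) and 1 on log2(TPM + 0.1). It became 5 with upper-quartile normalization, which lost *F3H* (adjusted p = 0.0113), and 5 with only the genotypes compared in the fit, which lost *UGT78D1* (adjusted p = 0.01015). At an adjusted p below 0.05 *F3'H* was added (edgeR adjusted p = 0.0178). For *jazQ phyB* against WT both TPM fits lost *F3'H* (limma adjusted p = 0.0323 and 0.0324). For *jazQ phyB* against *jazQ* the 2 genes became 1 in both TPM fits and 4 at an adjusted p below 0.05. Against *phyB*, 1 gene became 2 with DESeq2, with no filter on low counts, with the replicate block and at an adjusted p below 0.05, each time with *MYB12* added as lower (log2 fold change -0.96, -0.94 and -0.94 in the first 3, adjusted p = 0.00196, 0.00722 and 0.00170). The interaction count of 0 became 1 at an adjusted p below 0.05, *UGT78D1*. Leaving out 1 library gave 3 to 6 genes for *phyB* against WT, 4 to 5 for *jazQ phyB* against WT, 1 to 3 for *jazQ phyB* against *jazQ*, 1 to 2 for *jazQ phyB* against *phyB*, and 0 for *jazQ* against WT and for the interaction. For *jazQ phyB* against *jazQ*, the lowest count came without *jazQ* replicate 1 or 2 or *jazQ phyB* replicate 1 or 2. The count for *jazQ phyB* against *phyB* was 2 without *phyB* replicate 3. The cause of these changes was not tested.

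Same-numbered libraries of different genotypes did not deviate together (18 pairs, r -0.15 to 0.24, median 0.01, 3 pairs over 0.1, and 6 of 12 libraries closest to their own number), so that the numbers were not taken as pairs. The replicate block gave 6 genes for *phyB* against WT, 5 for *jazQ phyB* against WT, 2 against *jazQ* and 2 against *phyB*. *MYB11* was too low to test at this depth, and *MYB12* and *MYB111*, with 59 to 289 and 67 to 225 counts, had the widest intervals of the 9.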
